A study of Mus musculus with 20 samples.

Results

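Mouse embryonic stem cells that had lost Trim71 were compared with the conditional cells that still carried it, over 4 libraries a side. TRIM71, the vertebrate LIN-41, is an RNA-binding protein of the TRIM-NHL family that is made in pluripotent cells and early neural progenitors. Its NHL domain binds hairpins in messenger RNAs and lowers their stability or translation, its RING domain acts as a ubiquitin ligase, and its own transcript is a target of the let-7 microRNA. Loss of TRIM71 is lethal to the mouse embryo and leaves the neural tube open, and the title of the series names neural differentiation beside the deletion.

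All 8 libraries came from male C57BL/6 stem cells grown in serum with LIF and the 2 inhibitors known as 2i, a medium that holds cells near the naive state. The control group, Trim71-cond, is labelled Trimfl/fl, meaning that both alleles carry sites for deletion. The other group, Trim71-KO, carries the deletion. The labels give neither the agent that removed the gene, nor the part removed, nor a clone. Each group has libraries coded 1A, 2B, 3A and 3B, and the number in the code is the same as the day in the labels (day 1, 2 or 3, with 2 libraries a group on day 3). What the day counts is not given. Nothing in the labels says that the libraries came from separate deletions or cultures, so the p-values below measure only the spread between these libraries, which may be technical. The series holds 20 libraries in all. The other 12 are clones with the R595H change of Trim71 and their WT and R595H/+ counterparts, and they are used here only in a closing comparison.

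Transcript levels were deposited as log-scale values for 13283 gene symbols. Of these, 9580 had a mean of at least 3.32 over the 8 libraries, which is 10 on the linear scale, and were tested, and 3703 were not. Library medians lay between 5.17 and 5.20, and the depth of the libraries is unknown. The stem cell markers Pou5f1, Sox2, Nanog, Zfp42, Dppa5a and Esrrb were all tested, and their summed level was 12.2 to 12.3 in Trim71-cond and 12.3 to 12.4 in Trim71-KO. The endoderm factors Gata6 and Sox17 were at or below 0.521 in every library, and the trophoblast factor Gata3 was at or below 0.409. Other members of their marker lists were higher. In Trim71-cond Sparc was at 7.87 to 7.98, Tfap2c at 5.62 to 5.88 and Krt18 at 5.04 to 5.84. Marker lists of other cells had these summed levels in Trim71-cond and Trim71-KO: fibroblast or feeder (2 of 9 members tested) 6.84 to 7.17 and 6.78 to 7.23; trophectoderm (4 of 9) 7.18 to 7.40 and 7.04 to 7.19; primitive or visceral endoderm (2 of 9) 8.51 to 8.63 and 8.52 to 8.89. Those of mesoderm (1 of 3) were 4.33 to 4.48 and 4.41 to 4.50, and those of two-cell-like cells (3 of 10) were 9.74 to 9.91 and 9.59 to 9.66. The two-cell-like level is mostly that of Eif1a, the endoderm level mostly that of Sparc and Lama1, and the trophectoderm level mostly that of Tfap2c and Krt18. The part of other cell types in the results was not tested.

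The deposited columns hold a regularity that touches every test. After each gene is centred, the 20 columns span 14 free directions where 19 would be expected. The libraries are thus tied to each other by 5 exact linear relations. These leave the differences between group means free. They also tie Trim71-cond libraries to Trim71-KO libraries, most of all in code 1A, so the spreads of the groups are not independent. Once group means are removed, the direction in which the libraries of a code move together lies partly in these relations. The share of that direction, as squared length, is 94.3% in code 1A and 12.2%, 22.1% and 3.9% in codes 2B, 3A and 3B. For the direction of the difference between the libraries of a code it is at most 1.89%. These shares describe directions among the columns and do not measure how much variation of expression was lost. The 8 libraries then have 4.97 effective residual degrees of freedom rather than 6. What made the relations is not given in the sources used here. Beside the fit of the 8 libraries, counts are therefore also given for an adjusted fit, added after the data were seen, which takes all 20 libraries and carries the 5 directions as covariates. The adjusted fit also takes its spread from the clones of the other system, and there repeat libraries of a clone count as separate samples.

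In the 8-library fit with limma, 1783 genes (18.6%) differed at a Benjamini-Hochberg adjusted p under 0.05. Of these, 885 (9.24%) were higher in Trim71-KO and 898 (9.37%) were lower, and 1598 changed in the same direction in each of the 4 codes. That agreement follows largely from the call, which rests on the same libraries. The libraries of the groups did not overlap for 1988 genes, or 20.8% of those tested. Changes were mostly small: their median size was 0.29 on the log2 scale, and 38 rises and 22 falls reached 1.5-fold. The median change over all tested genes was -0.0028. In the adjusted fit 378 genes (3.95%) were higher and 319 (3.33%) were lower, and 696 of these 697 were among the 1783. A fit with an indicator for code 1A alone called 1418.

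**Figure D1:**
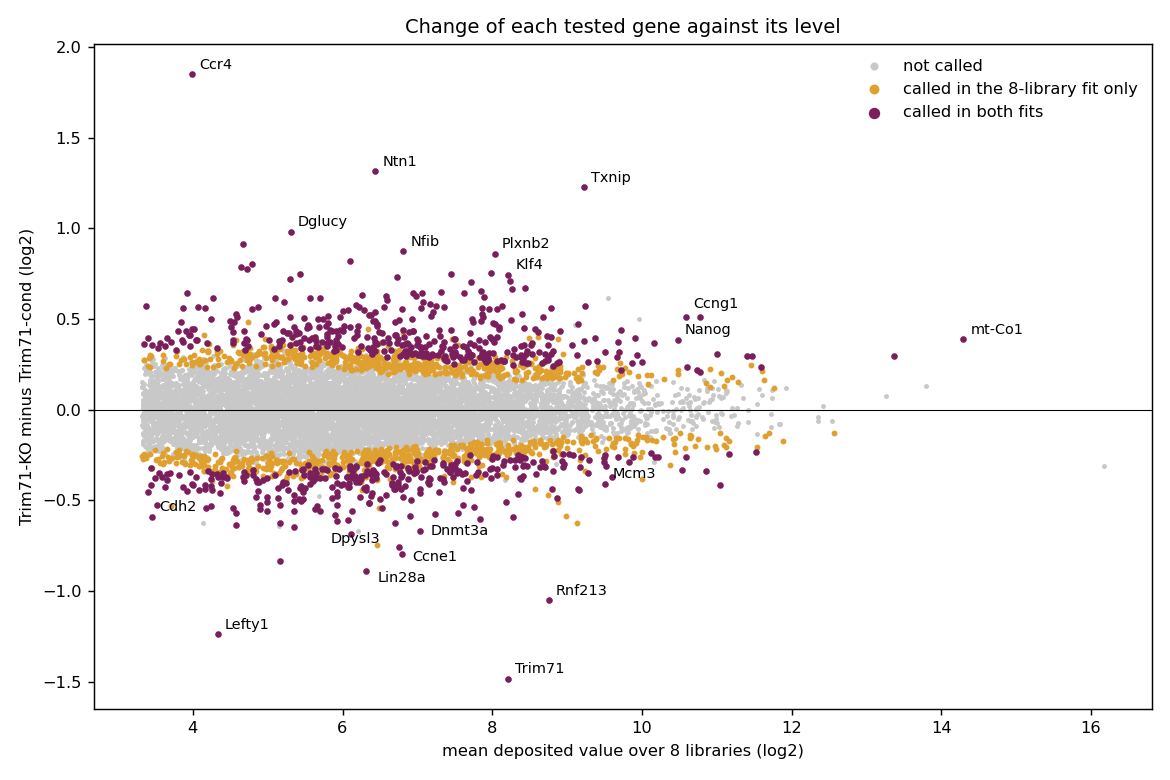
Log2 change in Trim71-KO against the mean level over the 8 libraries, 1 point per tested gene. Grey genes were not called, orange genes were called in the 8-library fit only, and purple genes were also called in the adjusted fit; the called changes lie on both sides of 0, and Ccr4, Ntn1, Txnip, Trim71, Lefty1 and Rnf213 are the farthest from it.

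Trim71 itself was measured at 8.94, 8.94, 8.93 and 9.01 in the Trim71-cond libraries 1A, 2B, 3A and 3B, and at 7.44, 7.43, 7.47 and 7.53 in Trim71-KO. No Trim71-KO library came near a Trim71-cond library. The log2 change was -1.48 ± 0.055 (SE, n = 4 against 4), and the exact permutation test, two-sided, gave p = 0.0286, the lowest value possible for 4 against 4 libraries. The reads left amount to 35.8% of the Trim71-cond level. Since the deleted part is not named, this value does not say how much intact transcript remained.

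The largest rise among called genes was that of Ccr4, a chemokine receptor gene that lies next to Trim71 on chromosome 9, downstream of it on the same strand. Its levels were 3.16, 3.13, 3.07 and 2.87 in Trim71-cond and 4.79, 5.16, 4.71 and 4.97 in Trim71-KO, in the order 1A, 2B, 3A, 3B that is kept throughout. The level was below the test's minimum mean in every Trim71-cond library and above it in every Trim71-KO library, so the gene entered the test only through the group in which it was high. The change was 1.85 ± 0.098 on the log2 scale, or 3.60-fold. The authors' counting is not described, and strand is not marked by the kit named in the labels, so reads running on from Trim71 cannot be told apart from reads of Ccr4.

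Ntn1, which encodes the axon guidance cue netrin-1, was at 5.82, 5.62, 5.93 and 5.75 in Trim71-cond and at 7.08, 6.99, 7.14 and 7.18 in Trim71-KO. Every Trim71-KO library was more than 1 log2 unit above the highest Trim71-cond library, and the rise was 2.49-fold. Txnip, the inhibitor of thioredoxin that also curbs glucose uptake, was at 8.75, 8.89, 8.31 and 8.49 and then at 9.64, 10.26, 9.60 and 9.85. Its rise of 1.23 ± 0.19 had a larger error than those of its neighbours in rank (limma adjusted p = 0.00545). Its library of code 2B was the highest in both groups. With the replicate block, which compares the libraries within each code, its adjusted p from limma was 9.5e-16. That value draws on the spread that limma borrows from all genes, and not only on the within-code differences of Txnip.

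Klf4, a pluripotency transcription factor downstream of LIF, was at 7.94, 7.96, 7.62 and 7.85 in Trim71-cond and at 8.48, 8.68, 8.55 and 8.64 in Trim71-KO, a 1.67-fold rise (adjusted p = 9.3e-07 from limma). Nfib, a transcription factor of glia and progenitors, was at 6.32, 6.19, 6.36 and 6.62 and at 7.24, 7.38, 7.14 and 7.24. Plxnb2, a semaphorin receptor, was at 7.65, 7.75, 7.55 and 7.47 and at 8.46, 8.63, 8.30 and 8.46. In these 3 genes the lowest Trim71-KO library lay at least 0.5 log2 units above the highest Trim71-cond library.

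Other leading rises lay outside the lists of pathways. Dglucy, an enzyme of D-glutamate breakdown, rose by 0.98 ± 0.11, and Pros1 (protein S, a blood-clotting cofactor and ligand of TAM receptors) by 0.82 ± 0.095. Abcd3, a peroxisomal fatty acid transporter, was at 7.59, 7.64, 7.57 and 7.65 and rose to 8.38, 8.47, 8.39 and 8.21. Yod1, a deubiquitinase, and Mob1b, a scaffold of the Hippo kinases, each rose 1.68-fold. Ano3, a calcium-dependent membrane protein, and Cobl, an actin nucleator, rose by 0.72 ± 0.14 and 0.71 ± 0.070, and the zinc finger gene Zfp148 rose by 0.67 ± 0.066. All of these passed in both fits with limma, and the widest spread was that of Ano3, whose Trim71-KO library of code 1A (5.33) stood just above the highest Trim71-cond library (5.26).

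**Figure D2:**
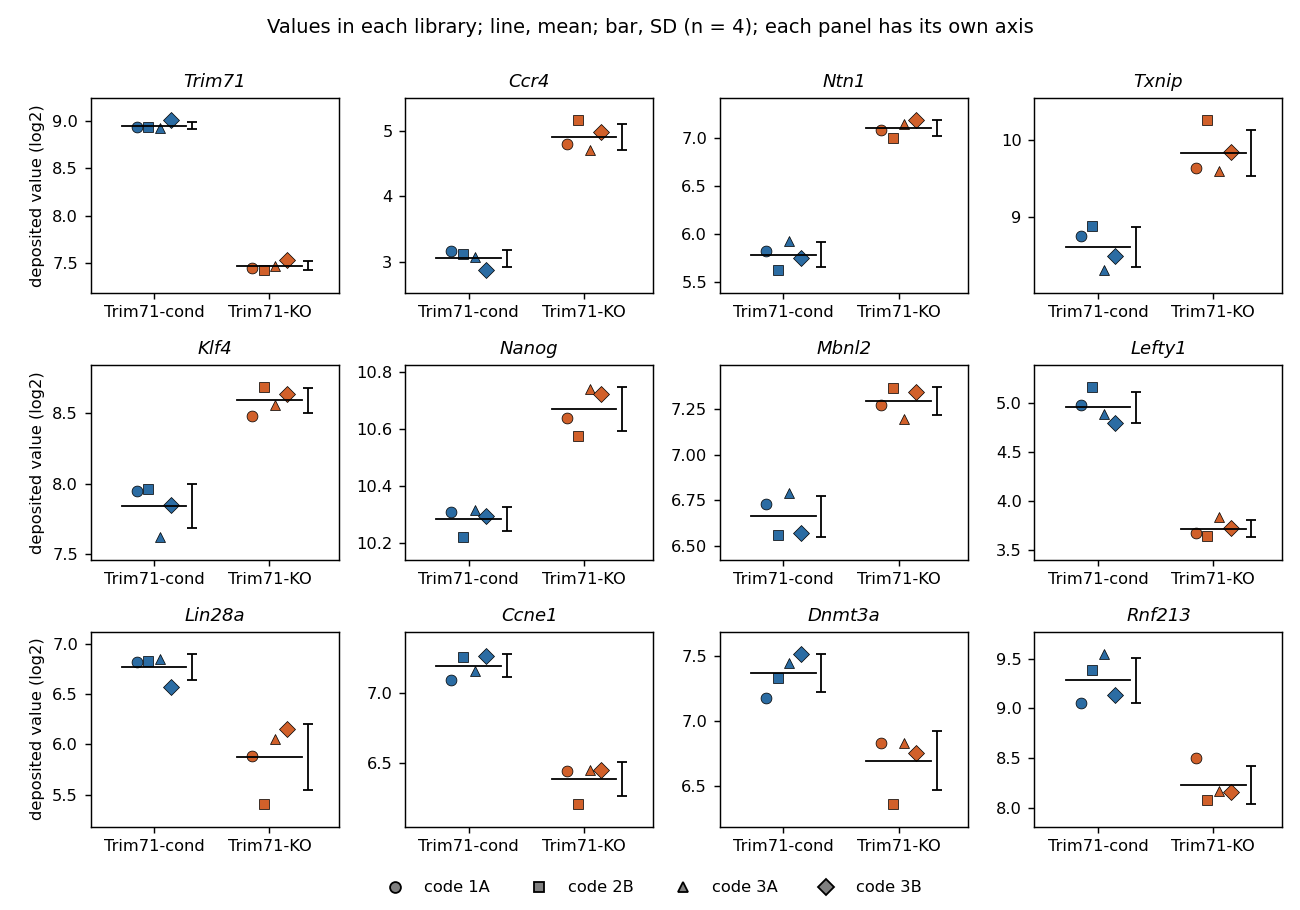
Deposited log2 values of 12 genes in the 8 libraries, with the mean as a line and the SD (n = 4) as a bar, Trim71-cond beside Trim71-KO. The groups are apart in each of the 12 panels, with Trim71 at 8.93 to 9.01 against 7.43 to 7.53 and Nanog at 10.22 to 10.31 against 10.58 to 10.74. Most of these genes were chosen for groups apart or for a small p, so the separation follows largely from the choice.

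Beside Trim71, the largest fall was that of Lefty1, which encodes an antagonist of Nodal. It was at 4.97, 5.16, 4.89 and 4.79 in Trim71-cond and at 3.67, 3.64, 3.83 and 3.72 in Trim71-KO, 2.36-fold lower, and no Trim71-KO library was above 3.83. Rnf213, a large ubiquitin ligase induced by interferon, was at 9.06, 9.39, 9.54 and 9.13 and fell to 8.51, 8.08, 8.17 and 8.16. The Trim71-KO library of code 1A was the highest of its group for Rnf213, and it was still below every Trim71-cond library.

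Lin28a, which blocks the maturation of let-7, was at 6.82, 6.82, 6.84 and 6.57 in Trim71-cond and at 5.88, 5.41, 6.05 and 6.15 in Trim71-KO. The fall of 0.89 ± 0.12 held in each code and was smallest in 3B. Dpysl3, a cytoskeletal protein of growth cones, fell by 0.76 ± 0.087, and Dusp9, a phosphatase of ERK, fell by 0.68 ± 0.088. Dusp9 was at 6.28, 6.40, 6.64 and 6.52 and then at 5.90, 5.62, 5.82 and 5.77, so the groups were apart in every code.

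Further falls came from genes of unlike function. Col9a2 (a collagen IX chain) fell 1.57-fold, the ribosomal protein gene Rpl39l 1.54-fold, and the RhoA exchange factor gene Plekhg1 1.53-fold. Rpl39l has a close copy, Rpl39, so that the split of its reads is uncertain. Cul1, the scaffold of SCF ubiquitin ligases, was at 7.84, 8.13, 8.29 and 8.30 and fell to 7.78, 7.36, 7.36 and 7.65, with libraries of code 1A only 0.06 apart. Ak4, a mitochondrial adenylate kinase, and Adgre5 (the adhesion receptor CD97) also had their smallest difference in code 1A. Lrp2 (megalin, 1.68-fold lower), Calcoco2 (an autophagy receptor, 1.54-fold lower) and Mat2a (the enzyme that makes S-adenosylmethionine, 1.5-fold lower) fell in the 8-library fit. Their adjusted p-values from limma were 0.0891, 0.0524 and 0.0547 in the adjusted fit, so these calls were lost there.

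Genes of naive pluripotency moved in both directions. These are the transcription factors and markers of the ground state that cells keep under LIF and 2i. Of 30 tested, 10 were higher, 6 were lower and 14 did not pass, which is 53.3% called against 18.6% of all tested genes (the difference was not tested), with a median change of 0.136. In both fits 7 were higher and 4 lower. Without code 2B 8 were higher and 3 lower, and without code 3A 10 were higher and 3 lower.

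Klf4 led the rises. Nr5a2, an orphan nuclear receptor that can stand in for Oct4 in reprogramming, was at 7.56, 7.61, 7.59 and 7.64 in Trim71-cond and at 8.14, 8.01, 8.15 and 8.19 in Trim71-KO. Klf5, which shares targets with Klf4, rose by 0.49 ± 0.068. Nanog was at 10.31, 10.22, 10.31 and 10.29 and rose to 10.64, 10.58, 10.74 and 10.72, and the methylcytosine oxidase gene Tet2 rose by the same 0.39. These 4 rises were present in every code.

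Other members moved less or the other way. Tdgf1, the Nodal co-receptor Cripto, was at 11.53, 11.27, 11.33 and 11.14 and at 11.47, 11.65, 11.78 and 11.56, so that in code 1A the Trim71-KO library was the lower. Its adjusted p from limma was 0.0076 with all libraries, 0.077 without code 2B, 0.054 without code 3B and 0.095 after quantile normalization. Sall4, a zinc finger factor that is needed for stem cell growth, fell by 0.46 ± 0.056 in tight groups, from 8.56, 8.54, 8.61 and 8.60 to 8.13, 8.01, 8.15 and 8.17. Of 12 genes of LIF and STAT3 signalling 3 were higher and 2 lower (41.7% called), with a median of -0.011. There were 3 and 1 in both fits, while 0 were lower without code 3B. The list includes Klf4 and the kinase gene Sgk1, which rose by 0.40 ± 0.067.

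Formative and primed genes, which mark cells leaving the naive state, had 2 higher and 4 lower of 14 tested, with a median of -0.063. The share called was 42.9%, against 18.6% of all tested genes. In both fits 1 was higher and 3 were lower. The falls include Lin28a and 2 genes known from the epiblast, Dnmt3a and Cdh2. Dnmt3a, a de novo DNA methyltransferase, was at 7.18, 7.33, 7.44 and 7.51 and fell to 6.83, 6.36, 6.83 and 6.75. Cdh2 (N-cadherin) was at 3.68, 3.84, 3.67 and 3.81 and fell to 3.20, 3.12, 3.18 and 3.14, and it entered the test only through the Trim71-cond group, the Trim71-KO libraries being below the minimum mean. The tight junction gene Cldn6, of the same list, rose by 0.64 ± 0.084.

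Nodal, BMP and TGF-beta genes had 5 higher and 2 lower of 23 tested, with a median of -0.062. The share called was 30.4%, against 18.6% of all tested genes, and in both fits 4 were higher and 2 lower. Nodal signals through the type I receptor ACVR1B with Cripto as co-receptor, and Lefty1 and Smad7 are induced by the pathways that they restrain. Acvr1b was at 5.78, 5.75, 5.51 and 5.76 and rose to 6.07, 6.26, 6.18 and 6.02. Smad7 rose by 0.46 ± 0.11, and its adjusted p from limma was 0.0055 with all libraries and 0.051 without code 2B. The falls were Lefty1 and Gdf3, a Nodal-like ligand that fell by 0.32 ± 0.072 (adjusted p = 0.0045 from limma, and 0.055 without code 3B). So the antagonist and a ligand were lower while a receptor, the co-receptor and an inhibitory SMAD were higher. With a single code left out, 2 to 4 members were higher and 1 to 3 lower, the extremes being code 2B (2 and 3) and code 3B (3 and 1).

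Other signalling lists changed in both directions. FGF and MAPK feedback genes had 4 higher and 1 lower (Dusp9) of 20, with 2 and 1 in both fits and 1 and 1 without code 3A. Wnt genes had 3 higher and 4 lower of 19, with 2 and 0 in both fits. The count of lower Wnt genes was 0 without code 3A, 1 without code 3B, 2 without code 2B and 1 with the replicate block. Hippo and YAP genes had 3 higher and 2 lower of 19, with 2 and 2 in both fits. Notch pathway genes had 5 higher and 1 lower of 15, with a median of 0.095, and in both fits, as without code 3A, 3 higher and 0 lower.

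The share called in the machinery that acts beside TRIM71 on messenger RNA was a little above that of all tested genes. TRIM71 is known to work with the CCR4-NOT deadenylase and with Argonaute, so the list holds Argonautes, TNRC6 proteins, deadenylases, decapping and decay enzymes. Of 31 tested, 5 were higher and 2 were lower, or 22.6% called against 18.6% of all tested genes. The median was 0.0099, and no change was beyond 0.299 in size. Dcp2, the decapping enzyme, rose by 0.26 ± 0.052, from 9.82, 9.76, 9.91 and 9.99 to 10.14, 10.07, 10.14 and 10.19. Tnrc6b, which links Argonaute to deadenylases, rose by 0.30 ± 0.068. These rises were the 2 that passed in both fits. With a single code left out 2 to 5 members were higher and 0 or 1 lower.

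Splicing regulators had 5 higher and 5 lower of 32, or 31.2% called against 18.6% of all tested genes. In both fits 3 were higher and 0 lower, and 1 or 2 were lower when any single code was left out. The muscleblind genes gave the largest rises of the list, and both encode factors that hold splicing in the pattern of differentiated cells. Mbnl2 was at 6.73, 6.56, 6.79 and 6.57 in Trim71-cond and at 7.27, 7.36, 7.19 and 7.34 in Trim71-KO. Mbnl1 was at 6.89, 7.00, 7.04 and 6.90 and at 7.58, 7.53, 7.51 and 7.49. Both rose about 1.5-fold (1.54 and 1.48), with the Trim71-KO libraries above every Trim71-cond library.

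Among genes of DNA replication more were lower than higher, and most did not pass. Before S phase the MCM2-7 helicase is loaded at origins, and CDC45 and the GINS complex then switch it on. Of 30 licensing and helicase genes, 10 were lower and 4 higher (46.7% called), with a median of -0.101, and 7 and 2 in both fits. Of 31 genes of fork synthesis, 8 were lower and 0 higher (25.8% called), with a median of -0.105, and 5 and 0 in both fits. Without code 3A 5 fork genes were lower.

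The promoters below are those of the called replication genes that hold an E2F motif, among the 4 with the largest change (Rpa2, Gins3, Mcm3 and Mcm5), since E2F factors are the known activators of this program at the start of S phase. They are the 250 bases before the gene start in the RefSeq table on GRCm38.p6, both on the plus strand, at chr8:75109259-75109508 and chr8:95633309-95633558. Capitals mark the motif, taken as TTTCCCGC, TTTCGCGC, TTTGCCGC or TTTGGCGC on either strand, and in Mcm5 the capitals cover 2 overlapping matches on opposite strands.
Mcm5: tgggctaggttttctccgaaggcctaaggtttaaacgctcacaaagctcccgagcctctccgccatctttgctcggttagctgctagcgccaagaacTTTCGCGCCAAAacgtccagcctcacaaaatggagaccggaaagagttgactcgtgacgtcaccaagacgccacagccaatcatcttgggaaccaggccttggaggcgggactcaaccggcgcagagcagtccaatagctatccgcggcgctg
Gins3: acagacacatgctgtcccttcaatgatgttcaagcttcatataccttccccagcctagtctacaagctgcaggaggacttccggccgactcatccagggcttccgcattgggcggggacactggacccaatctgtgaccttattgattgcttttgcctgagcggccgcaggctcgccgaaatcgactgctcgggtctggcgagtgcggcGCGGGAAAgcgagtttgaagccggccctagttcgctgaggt

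The promoters of Rpa2 and Mcm3 had no match in this window. Over all promoters of that source, 27025 in number, 1.91% held a match, and of the tested genes with a promoter there, 7604 in all, 3.97% did. Of the fork synthesis genes 3 of the 26 with a promoter held one (11.5%), and no test compared these shares. Because fewer than 80% of tested genes had a promoter in that source, the share over tested genes is incomplete. The share is not given for the licensing genes, because only 23 of 30 were found in the promoter table. A match is a description of letters, and the Mcm5 gene fell while the Gins3 gene rose.

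Mcm5 was at 9.72, 9.89, 9.74 and 9.82 in Trim71-cond and at 9.52, 9.26, 9.44 and 9.46 in Trim71-KO. Mcm3, another helicase subunit, was at 9.62, 9.77, 9.72 and 9.75 and fell to 9.40, 9.20, 9.35 and 9.28. Mcm2 fell by 0.32 ± 0.058 and Mcm6 by 0.24 ± 0.047. All 4 subunits were lower in every code, and the smallest difference of Mcm2, Mcm3 and Mcm5 was in code 1A. Gins3, a subunit of the GINS complex that was taken up for its promoter, was the largest rise of the list, from 5.24, 5.06, 5.13 and 5.26 to 5.50, 5.53, 5.50 and 5.81.

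At the fork, Rpa2, a subunit of the protein that coats single-stranded DNA, was at 7.79, 7.97, 7.97 and 8.05 and fell to 7.64, 7.46, 7.42 and 7.49. Lig1, the ligase of Okazaki fragments, and Fen1, the nuclease that trims them, each fell by 0.31, with standard errors of 0.063 and 0.071. Fen1 had an adjusted p of 0.0053 from limma with all libraries and of 0.052 without code 3A.

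Among 31 G1 cyclins, kinases and pocket proteins, 7 were lower and 3 higher, or 32.3% called against 18.6% of all tested genes. There were 5 lower and 3 higher in both fits. Ccne1 (cyclin E1), which drives entry into S phase with CDK2, was at 7.09, 7.25, 7.15 and 7.26 and fell to 6.44, 6.21, 6.45 and 6.46. Ccnd3 (cyclin D3) fell by 0.46 ± 0.078, the phosphatase gene Cdc25a by 0.36 ± 0.065 and the kinase gene Cdk4 by 0.28 ± 0.056. The groups were apart for each of these 4 genes.

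Other lists of the cell cycle and of DNA repair had few members called in both fits. Shares called in the 8-library fit were 25.0% for mitosis, 18.5% for nucleotide synthesis and 21.4% for histones, against 18.6% of all tested genes. For recombination genes and for mismatch and base excision repair genes they were 17.1% and 13.0%. Mitosis and kinetochore genes had 8 lower and 2 higher of 40, but 1 and 1 in both fits, and 5, 3 and 4 were lower without code 2B, 3A and 3B. Nucleotide synthesis genes had 3 lower and 2 higher of 27 and 0 of either in both fits. Homologous recombination and Fanconi genes had 3 and 3 of 35, with 1 and 1 in both fits and without code 2B. Mismatch and base excision repair genes had 3 lower and 0 higher of 23, with 1 lower in both fits and without code 2B or 3B, among them Ung (uracil-DNA glycosylase, fell by 0.34 ± 0.072). Histone genes had 4 lower and 2 higher of 28, with 1 and 0 in both fits, and with 1 to 6 lower when a single code was left out.

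Regulators and targets of p53 held more rises than falls. The p53 protein activates genes of arrest, repair and death after damage. Of 35 tested, 15 were higher and 4 lower (54.3% called), with a median of 0.167, and 11 and 0 in both fits. Without code 2B 11 were higher and 1 lower, and without code 3A or 3B 12 were higher and 0 lower.

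Trp53inp1, which amplifies the p53 response, was at 10.57, 10.50, 10.45 and 10.59 and rose to 10.95, 11.14, 11.07 and 10.98. Ccng1 (cyclin G1) was at 10.38, 10.34, 10.16 and 10.48 and rose to 10.75, 10.95, 10.82 and 10.87. Eda2r, a receptor of the TNF family, was at 6.12, 6.48, 6.21 and 6.63 and at 7.15, 7.11, 6.98 and 7.11. In all 3 genes the groups were apart. Polk, a polymerase that copies past lesions, and Btg2, an antiproliferative gene, rose by 0.50 ± 0.071 and 0.54 ± 0.082. Btg2 and Sgk1 are also immediate early genes, a list with 5 higher and 0 lower of 11 tested (45.5% called) and a median of 0.293. That list had 3 higher in both fits, as without code 2B or 3B.

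The median glycolysis gene was lower in every code. Of 26 tested, 14 were lower and 0 higher (53.8% called), with a median of -0.238, and the medians by code were -0.265, -0.254, -0.240 and -0.181. With the replicate block 15 were lower, without code 2B 7, and in the adjusted fit 3. Ldha, which turns pyruvate into lactate, was at 10.26, 10.23, 10.29 and 9.98 and at 9.81, 9.89, 9.91 and 9.62, so the groups were apart by less than 0.1. The Ldha fall of 0.38 ± 0.068 and that of Aldoa (aldolase A, 0.30 ± 0.052) passed in the 8-library fit and within codes, and had limma adjusted p-values of 0.363 and 0.113 in the adjusted fit. With the 20 libraries and no covariates, the adjusted p of Ldha from limma was 0.153. Hk2, which phosphorylates glucose, fell from 9.63, 9.62, 9.66 and 9.59 to 9.38, 9.42, 9.34 and 9.36, and Eno3 (an enolase) fell by 0.42 ± 0.090. Both passed in both fits.

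Genes of the hypoxia response, many of which share regulators with glycolysis, had 7 lower and 1 higher of 20, with 1 lower and 0 higher in both fits. Without code 1A or without code 3B 1 was lower. Kdm3a, a histone demethylase induced by low oxygen, was at 8.75, 9.04, 9.17 and 9.10 and at 8.84, 8.53, 8.54 and 8.39. It was lower in 3 codes and slightly higher in code 1A, and its adjusted p from limma went from 0.0031 to 0.054 without code 3B. Bnip3, a mitophagy receptor, fell by 0.41 ± 0.10 with overlapping groups, and its adjusted p of 0.0093 from limma became 0.311 in the adjusted fit, 0.053 without code 1A and 0.066 without code 2B. With the 20 libraries and no covariates, the adjusted p of Bnip3 from limma was 0.111.

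Thioredoxin, glutathione and NRF2 genes had 3 higher and 6 lower of 33, or 27.3% called against 18.6% of all tested genes. There were 3 higher and 4 lower in both fits. Txnip led the rises. Nqo1, a quinone reductase under NRF2, rose by 0.47 ± 0.090. The metallothionein Mt1, which binds zinc and copper, was at 7.30, 7.08, 7.36 and 7.02 and fell to 6.59, 6.55, 6.78 and 6.49, and its neighbour in the genome Mt2 fell by 0.54 ± 0.10. Gpx4, the glutathione peroxidase that repairs lipid peroxides, was at 8.09, 8.13, 8.00 and 7.90 and fell to 7.47, 7.58, 7.53 and 7.38. Mt1, Mt2 and Gpx4 were apart between the groups in all libraries.

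Lists of lipid and amino acid metabolism had 13.6% to 27.8% of members called, against 18.6% of all tested genes. Cholesterol synthesis had 4 lower and 0 higher of 26, and 2 and 0 in both fits, with Hmgcs1, the enzyme before HMG-CoA reductase, falling by 0.29 ± 0.055. Cholesterol efflux and fatty acid synthesis had 4 lower and 1 higher of 18, with 2 and 0 in both fits and 1 lower without code 2B. The desaturase gene Fads1 fell from 7.55, 7.67, 7.48 and 7.44 to 7.14, 7.35, 7.05 and 7.05, and Acly, which supplies cytosolic acetyl-CoA, fell by 0.26 ± 0.059. The adjusted p of Acly from limma was 0.0045 with all libraries, 0.057 without code 2B and 0.066 without code 3B. Serine, one-carbon and methionine genes had 4 lower and 2 higher of 26, with 1 and 1 in both fits and 2 and 1 without code 3B, among them Mat2a and Srm (spermidine synthase, fell by 0.44 ± 0.071). Amino acid stress genes had 3 higher and 0 lower of 22, with 1 higher in both fits and without code 2B, 3A or 3B.

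Several lists of protein production and turnover held mostly falls in the 8-library fit and few in both fits. Shares called were 29.3% for translation, 25.8% for proteasome, 16.2% for ribosome biogenesis and 10.3% for ribosomal protein genes. Among all tested genes 18.6% were called. Translation initiation and tRNA synthetase genes had 10 lower and 2 higher of 41 (2 and 0 in both fits), and the counts of lower genes were 4 without code 2B and 4 without code 3A. Proteasome genes had 8 lower and 0 higher of 31, with 1 lower in both fits and 1, 2 and 4 without code 2B, 3A and 3B. Ribosome biogenesis genes had 6 lower and 0 higher of 37, with 2 lower in both fits and 3 without code 2B. Eif3b, a subunit of the initiation factor eIF3, fell from 9.35, 9.53, 9.49 and 9.43 to 9.18, 9.00, 9.02 and 9.21. The nucleolar gene Nop56 fell by 0.32 ± 0.055, and Polr1a, the large subunit of RNA polymerase I, by 0.36 ± 0.079. The 87 ribosomal protein genes tested had 6 higher and 3 lower, with a median of -0.0025, and 1 and 1 in both fits.

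Lists of chaperones, of lysosome and autophagy and of interferon and innate sensing had 22.2% to 29.2% of members called. Among all tested genes 18.6% were called, and the differences were not tested. Chaperone genes had 2 higher and 5 lower of 24, with 1 and 2 in both fits and 2 to 5 lower with a code left out. Hsp90aa1, the inducible cytosolic HSP90, was at 13.22, 13.17, 13.15 and 13.31 and rose to 13.47, 13.54, 13.44 and 13.59, while Pdia6, a disulphide isomerase of the endoplasmic reticulum, fell by 0.30 ± 0.058. After quantile normalization the Hsp90aa1 change was 0.064 (adjusted p = 0.196 from limma). Lysosome and autophagy genes had 5 higher and 3 lower of 36, with 2 and 1 in both fits and 1 lower without code 2B or 3A. The autophagosome gene Gabarapl1 rose by 0.44 ± 0.085 and the membrane protein gene Lamp2 by 0.37 ± 0.062, and the receptor gene Sqstm1 (p62) fell by 0.26 ± 0.059. Interferon and innate sensing genes had 6 lower and 1 higher of 25, with 2 lower in both fits, Rnf213 and Ifitm1, and with 2 and 3 lower without code 2B and 3A. Ifitm1, a membrane protein that blocks viral entry, fell from 5.93, 6.16, 5.70 and 5.86 to 5.30, 5.59, 5.32 and 5.25.

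**Figure D3:**
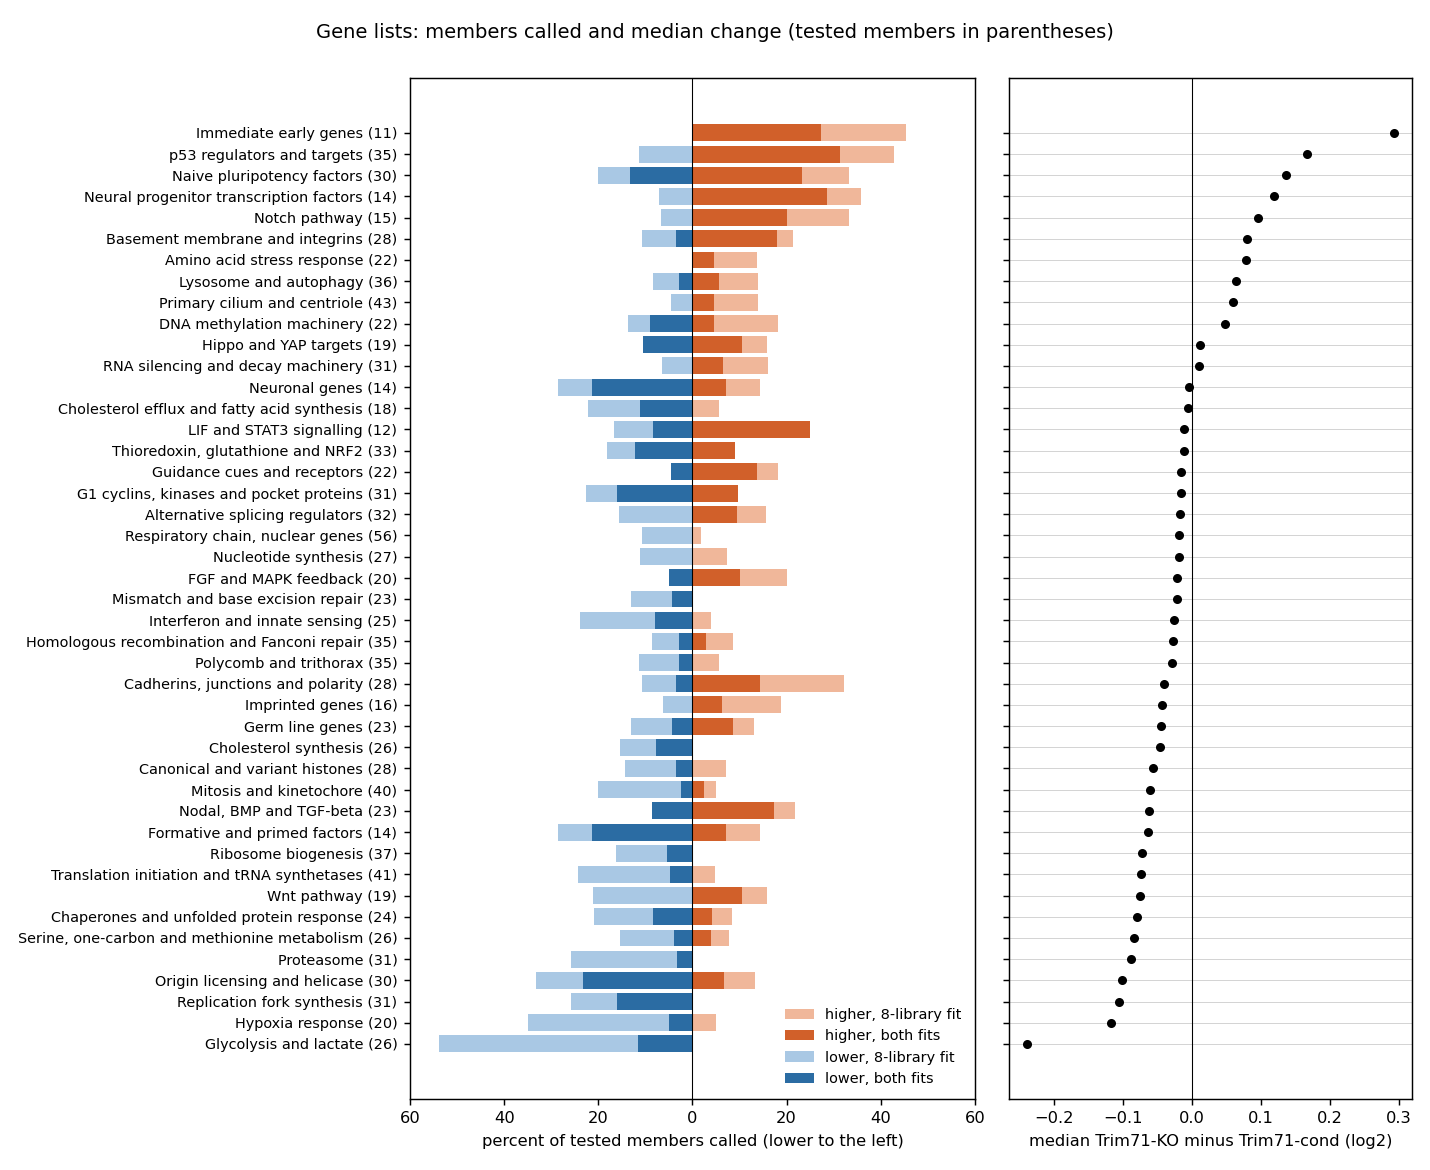
Percent of the tested members of each gene list called higher (right of 0) or lower (left of 0) in Trim71-KO, with the darker part called in both fits, beside the median log2 change of the list. Glycolysis has 14 of 26 members lower and p53 regulators and targets 15 of 35 higher, against 9.37% and 9.24% of all tested genes.

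Genes of cell contacts changed in both directions. Cadherins, junctions and polarity genes had 9 higher and 3 lower of 28 (42.9% called), with a median of -0.040, and 4 and 1 in both fits. Cdh1 (E-cadherin), which joins naive cells in colonies, was at 9.42, 9.55, 9.53 and 9.50 and rose to 10.00, 9.83, 9.79 and 9.85, while Cdh2 fell. The claudin gene Cldn7 was at 3.11, 3.07, 3.09 and 3.10 and rose to 3.67, 3.68, 3.78 and 3.53. Cldn7 entered the test only through the Trim71-KO group, since its Trim71-cond libraries were below the minimum mean. Without code 1A the list had 5 members higher and 5 lower, and without code 2B 5 higher and 1 lower.

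Basement membrane and integrin genes had 6 higher and 3 lower of 28, or 32.1% called against 18.6% of all tested genes. There were 5 higher and 1 lower in both fits, while 1 was lower without code 3A. The laminin chain genes Lama1, Lamb1 and Lama4 rose by 0.52 ± 0.085, 0.53 ± 0.084 and 0.56 ± 0.086. Itgb1, the beta chain of the laminin receptors of stem cells, was at 8.91, 9.01, 8.80 and 8.91 and rose to 9.36, 9.50, 9.38 and 9.27. Lama1 is also a marker of primitive endoderm, whose factors Gata4, Gata6 and Sox17 were below the test's minimum in every library. Sparc, another member of that marker list, was above the minimum. Krt18, a keratin of simple epithelia and a trophectoderm marker, was at 5.04, 5.59, 5.84 and 5.44 and at 5.29, 4.65, 4.65 and 4.82. Its groups overlapped, and its adjusted p from limma was 0.0114 with all libraries, 0.065 with the replicate block, 0.099 without code 2B, 0.084 without code 3A and 0.066 without code 3B.

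Many neural genes were below the test's minimum. Shares called were 42.9% both for progenitor factors and for neuronal genes, against 18.6% of all tested genes. Of the deposited transcription factors of neural progenitors, 24 in all, 14 were tested, of which 5 were higher and 1 lower, with a median of 0.119 and with 4 and 0 in both fits. After Nfib came Olig2, a factor of motor neuron and glial progenitors, at 5.72, 5.43, 5.52 and 5.31 and then 5.81, 6.17, 5.97 and 6.02. Sox11, a factor of young neurons, rose by 0.43 ± 0.090. The smallest difference of Olig2 and Sox11 was in code 1A, at 0.09 and 0.15. Neuronal genes had 2 higher and 4 lower of 14, with 1 and 3 in both fits. Without code 1A 1 was higher and 1 lower, and without code 3A 2 were lower. The neurofilament gene Nefm was at 3.55, 3.88, 3.84 and 3.88 and rose to 4.51, 4.28, 4.35 and 4.29, while Dpysl3 fell.

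Guidance cues and receptors had 4 higher and 1 lower of 22 tested, or 22.7% called against 18.6% of all tested genes. In both fits the counts were 3 and 1, and 30 more members were below the minimum. Ntn1 and Plxnb2 rose, and the semaphorin gene Sema5a fell from 6.08, 6.31, 6.27 and 6.08 to 5.90, 5.88, 5.84 and 5.45. Among genes outside the lists, Hook1, a dynein adaptor, rose by 0.55 ± 0.078 and Maged1, a MAGE-family gene, fell by 0.53 ± 0.065.

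Genes of DNA methylation had 4 higher and 3 lower of 22, or 31.8% called against 18.6% of all tested genes. The counts in both fits were 1 and 2: Tet2 higher, Dnmt3a and Uhrf1 lower. Uhrf1, which brings the maintenance methyltransferase to replicated DNA, was at 9.10, 9.09, 9.23 and 9.01 and fell to 8.69, 8.69, 8.59 and 8.51. Thus an oxidase of methylcytosine was higher, and a de novo enzyme and a maintenance factor were lower. Polycomb and trithorax genes had 2 higher and 4 lower of 35, or 17.1% called against 18.6% of all tested genes. In both fits the counts were 0 and 1, and 2 were lower without code 3A or 3B. Ezh2, the H3K27 methyltransferase, fell by 0.39 ± 0.075 in groups that overlapped at code 1A (8.36 against 8.37).

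Germ line genes had 3 higher and 3 lower of 23, with 2 and 1 in both fits. Tex15, a silencing factor of male germ cells, was at 7.41, 7.28, 7.15 and 7.62 and rose to 7.92, 8.10, 8.03 and 8.22, and the meiotic cohesin gene Stag3 rose by 0.52 ± 0.079. Tdrd12, of the piRNA pathway, fell by 0.57 ± 0.088. Imprinted genes had 3 higher and 1 lower of 16, with 1 and 0 in both fits. Genes of the primary cilium and centriole had 6 and 2 of 43, with 2 and 0 in both fits and 3 higher without code 2B or 3A. Nuclear genes of the respiratory chain had 1 higher and 6 lower of 56, and 0 of either in both fits, with 2 lower without code 2B. Shares called were 26.1% for germ line, 25.0% for imprinted, 18.6% for cilium and 12.5% for respiratory chain genes. Among all tested genes 18.6% were called.

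Gene families read from symbols differed in how their calls divided. Of 146 solute carriers 24 were higher and 10 lower (12 and 2 in both fits), and of 296 Zfp zinc finger genes 32 were higher and 10 lower (16 and 3 in both fits), with a median of 0.075. DEAD and DEAH helicases had 3 higher and 9 lower of 49, with 0 and 2 in both fits. Tmem genes had 12 and 4 of 116 (3 and 2 in both fits), and mitochondrial ribosomal proteins 2 and 6 of 76 (0 and 1). The shares called were 14.2% for Zfp genes, 13.8% for Tmem genes and 10.5% for mitochondrial ribosomal proteins, below the 18.6% of all genes. For solute carriers, DEAD and DEAH helicases and Trim genes they were 23.3%, 24.5% and 14.8%. Of 27 Trim genes 2 were higher and 2, with Trim71, were lower, and in both fits Trim71 alone was lower.

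Of the 7 mitochondrially encoded genes tested, 2 were higher and 0 lower, with a median of 0.387 and with 1 higher in both fits. The count was 5 without code 3A, 4 without code 3B and 3 with the replicate block. mt-Co1, a subunit of cytochrome oxidase, was at 14.06, 14.14, 13.93 and 14.27 and rose to 14.44, 14.53, 14.43 and 14.54. Its call was lost after quantile normalization, where its rank was the same in all 8 libraries and its change was 0. Of the 4 Y-linked genes tested 3 were lower, with a median of -0.400: Zfy1, Ddx3y and Uty fell by 0.53 ± 0.086, 0.40 ± 0.074 and 0.40 ± 0.092. Ddx3y was at 7.47, 7.67, 7.70 and 7.88 and at 7.24, 7.33, 7.29 and 7.27. The adjusted p-values of Zfy1, Ddx3y and Uty from limma were 0.267, 0.799 and 0.715 in the adjusted fit. With the 20 libraries and no covariates they were 0.0835, 0.685 and 0.565. The adjusted fit takes its spread from the clones too, and Ddx3y was at 5.01, 4.93 and 7.86 in the WT clones C16, C7 and C5. In the 8-library fit the adjusted p of Uty from limma was 0.0049 with all libraries and 0.0501 without code 3B.

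By chromosome, the percent of tested genes called higher ranged from 5.90% (chromosome 5) to 13.3% (chromosome 1) among the autosomes, and the percent called lower from 6.17% (chromosome 3) to 16.2% (chromosome 6). On chromosome 6 70 genes were lower and 31 higher of 433, with a median change of -0.039 and a median below 0 in each code. On chromosome 1 69 were higher and 48 lower of 517, with a median of 0.038.

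Called genes also differed in transcript length and base composition, which the choice of genes did not use. Over 9513 tested genes with an annotated transcript (GENCODE vM21), the median transcript length was 3546 bases, against 4397 in genes that were higher and 3096 in genes that were lower. The median 3' UTR was 1904 bases in the first and 980 in the second, and the median GC content was 45.8% and 51.2%. With the genes divided into 4 equal groups by GC content, 14.9% were higher and 5.30% lower in the group of lowest GC, and in the group of highest GC 5.13% were higher and 13.1% lower. Across genes, which are not independent replicates, Spearman's correlation of the change with GC content was -0.206, and within codes it was -0.066, -0.241, -0.225 and -0.053. The correlation with length was 0.171, and 0.032, 0.237, 0.088 and 0.132 within codes. Length and GC content themselves correlated at -0.251. In the R595H/R595H clones against WT the correlation of the change with GC content was 0.223, of the opposite sign. The part of length and GC content in the gene lists was not tested.

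The 4 codes gave changes of unequal size. Over the called genes, the median rise was 0.255, 0.350, 0.330 and 0.286 in codes 1A, 2B, 3A and 3B and the median fall was -0.220, -0.331, -0.307 and -0.292. Of the 30 largest changes, among genes with groups apart and a linear level of at least 50 in the higher group (which leaves out Ccr4 and Lefty1), 16 were smallest in code 1A and 0 in code 2B, and their median size was 0.618 in 1A and 0.907 in 2B. When a code was held out and genes were called from the other 3, 79.6% of rises were also rises in code 1A, against 92.4%, 90.4% and 92.4% in codes 2B, 3A and 3B. For falls the percentages were 75.1%, 91.4%, 89.6% and 92.1%. The first principal component of the 8 libraries held 44.5% of the variance and separated the groups, with Trim71-cond at -10.9 to -6.26 and Trim71-KO at 6.21 to 12.2. The libraries of code 1A were the innermost of both groups on it. On the second component, with 14.1%, they were the farthest from 0 in their groups and lay on opposite sides, at 8.90 and -6.50. The shared direction of code 1A lies 94.3% in the linear relations, so these opposite sides follow largely from the deposited columns.

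**Figure D4:**
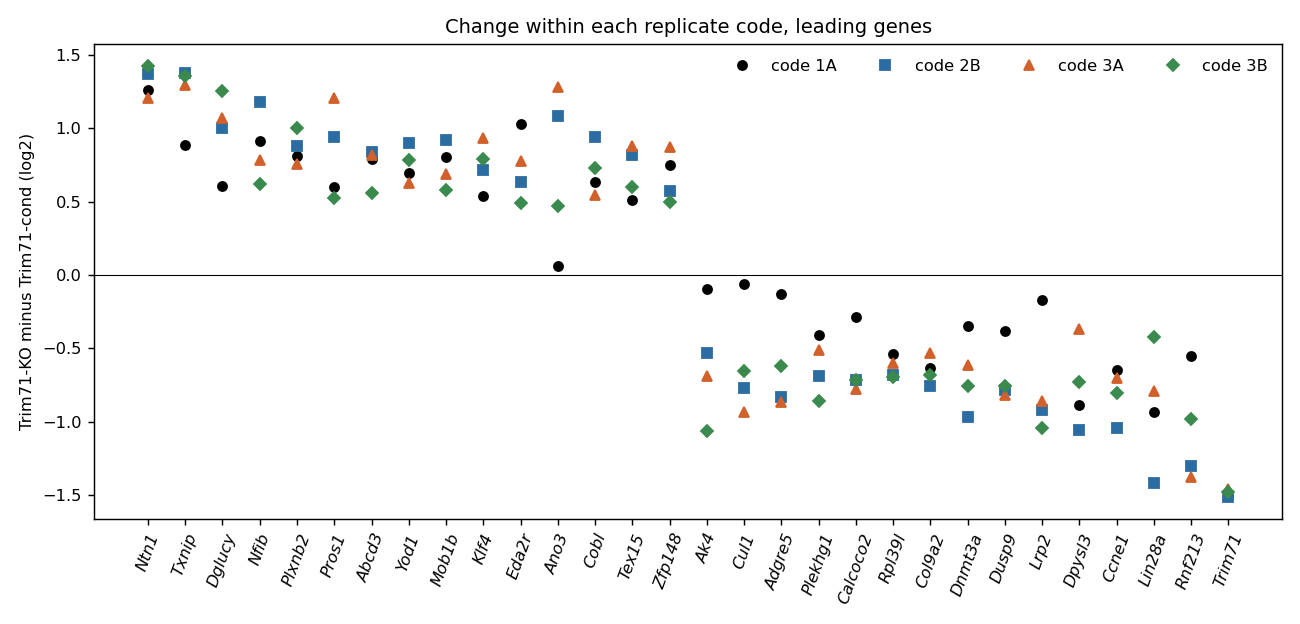
Difference between the Trim71-KO and the Trim71-cond library of each code, in log2 units, for the 15 largest rises and 15 largest falls with groups apart and a linear level of at least 50 in the higher group, 1 point per code. The choice of genes with groups apart places all 4 points of a gene on the same side of 0, and code 1A is the closest to 0 for 16 of the 30 genes.

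A test of whether the change differed between days called 19 of 9580 genes (0.198%), 10 of which had their smallest change on day 1. Days 1 and 2 have only 1 library a group each, so the spread comes from day 3. mt-Nd6, a mitochondrial subunit of complex I, differed by 0.237 on day 1, 1.32 on day 2 and 0.450 on day 3 (adjusted p = 0.00101 from limma). Pdia4, another isomerase of the endoplasmic reticulum, differed by 0.309, -0.540 and -0.642. Vim (vimentin), the main part of the fibroblast list, differed by -0.311, -0.601 and 0.442 and had no change on average (-0.0072). Coil, the scaffold of Cajal bodies, was higher on day 1 only, by 0.641. Ak4, Kdm3a and Krt18 were called as well, each with its smallest change on day 1 or the opposite sign there.

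The called genes were then read in the R595H/R595H clones, in a fit of both systems with clones as samples (3 R595H/R595H against 3 WT). R595H changes an arginine of the NHL domain. These libraries share no sample with the comparison above, but the clones and the conditional cells are different lines, and the line and the allele cannot be told apart. Of 880 genes that rose in Trim71-KO, 75.1% were also higher in R595H/R595H, with a median change there of 0.109. Of 897 that fell, 73.0% were lower, with a median of -0.096. Over all genes 49.4% were higher, with a median of -0.0023.

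**Figure D5:**
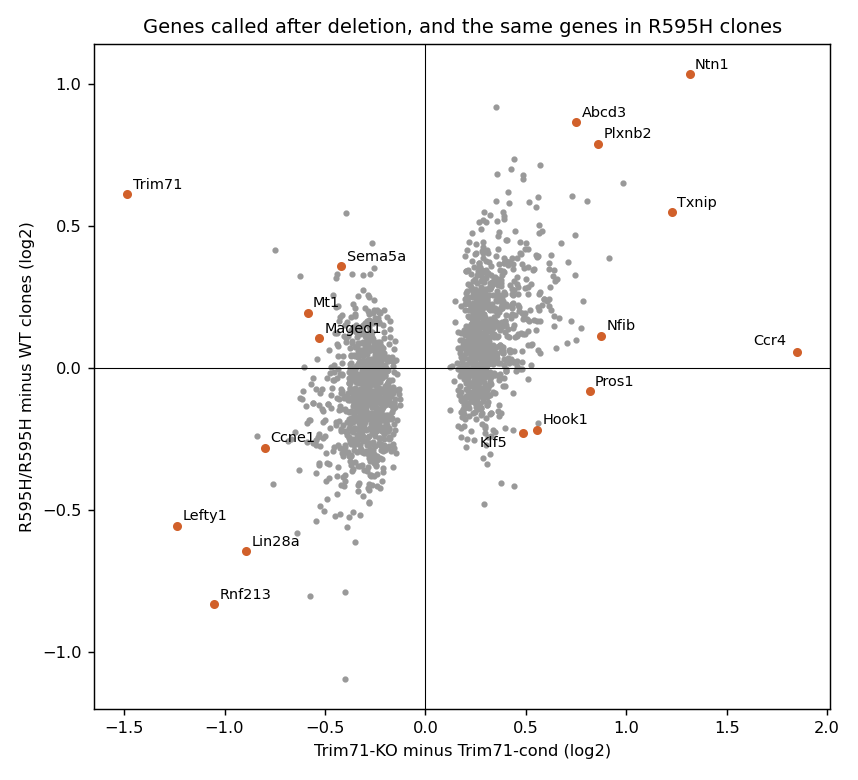
Log2 change in Trim71-KO (horizontal) against the R595H/R595H minus WT difference (vertical) for the genes called in Trim71-KO. Most points lie in the quadrants of equal sign, and Ccr4 and Trim71 lie apart, with changes of 1.85 and -1.48 in Trim71-KO against 0.06 and 0.61 in the clones.

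The difference between the effects was called for 136 of 9587 genes (1.42%). Trim71 was at 9.53, 9.49 and 9.48 in the WT clones C16, C7 and C5 and at 10.14, 10.00 and 10.18 in the R595H/R595H clones C14, C20 and C24. It was thus higher with the R595H change and lower with the deletion, a difference of -2.09 (adjusted p = 8.1e-17 from limma). Ccr4 was at 3.07, 3.12 and 2.96 and at 3.16, 2.81 and 3.34 in these clones, a difference between the effects of 1.79. The Trim71-KO change minus the clone change was above 0 for Nfib, Yod1, Tex15, Mbnl1 and Nr5a2, at 0.762, 0.652, 0.615, 0.516 and 0.445, with clone changes between 0.05 and 0.11. It was also above 0 for Pros1, Hook1 and Klf5, at 0.900, 0.774 and 0.717, with clone changes of -0.083, -0.22 and -0.23. It was below 0 for Lefty1 and Ccne1, at -0.680 and -0.515, with clone changes of -0.56 and -0.28. For Ccnd3, Cdk4 and Mt1 the difference was -0.715, -0.440 and -0.780, with clone changes of 0.25, 0.16 and 0.19.

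For other leading genes no difference between the effects was called. Ntn1 rose by 1.03, Plxnb2 by 0.79 and Abcd3 by 0.86 in R595H/R595H against WT, and the differences from Trim71-KO were 0.28, 0.07 and -0.11, with limma adjusted p-values of 0.28, 0.79 and 0.58. Rnf213 and Lin28a fell by 0.83 and 0.65 in the clones. A missed threshold does not show that the effects were alike.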

How the data were processed

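Total RNA taken up in TRIZOL was made into TruSeq RNA v2 libraries and read in pairs on a HiSeq1500, per the labels. CASAVA 1.8, STAR and DESeq2 appear in the submitters' processing notes. The build, annotation, read counting and kind of transformation were not given in the sources used here. Log-scale values were deposited by the authors, read here as log2 because of DESeq2, that run from -0.606 to 17.1 in these 8 libraries with 1.57% below 0. Read counts could not be recovered, so depth is unknown and no counting interval is given. Shrinkage of low values by such a transformation would understate their changes.

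limma 3.58.1 in R 4.3.3 (lmFit, eBayes with trend and robust, two-sided) was run on the deposited values of genes with a mean of at least 3.32, and calls needed an adjusted p (Benjamini-Hochberg) under 0.05. Changes are Trim71-KO minus Trim71-cond. The scripts were tested on simulated data, in which 26.9%, 77.6% and 98.5% of genes changed by 0.25, 0.5 and 1 log2 units were called. In it 200 of 9580 genes were changed and the noise was independent between libraries. The deposited columns are tied by linear relations, so these percentages check the scripts and are not the power of these libraries. Libraries with the same code share a day label, which pairs them by the labels, and the fit with the code as a replicate block was run beside the unblocked fit. Deviations of same-code libraries from their group means correlated at -0.89, -0.09, -0.12 and 0.13 in codes 1A, 2B, 3A and 3B. The value of code 1A is largely set by the linear relations, which hold 94.3% of its shared direction. The adjusted fit and the covariate for code 1A were added after the data were seen. Clone libraries were averaged per clone only in the fit of both systems. In the adjusted fit and the fit of 20 libraries without covariates, repeat libraries of a clone entered as separate samples.

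The comparison, the lists and the members named were chosen with earlier results of these data known. The rule named Trim71, the 15 largest rises and falls with groups apart and a linear level of at least 50, for each list its highest member and up to 4 with the lowest p, the 5 genes with the smallest p of the day interaction, and 5 per direction of the difference between systems. Up to 4 called replication genes were taken for their promoters, which brought in Gins3. Promoters are from RefSeq (GRCm38.p6), which held 7604 of the 9580 symbols. Transcript lengths are from GENCODE vM21, in which 9493 symbols had a single match, 20 had several and 67 had none.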

Additional observations from a re-analysis of the deposited data

Results flagged for a closer look

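Single libraries stood apart from the other 3 of their group in 13 of the 218 groups of 4 that were checked over the genes named here, by a gap test that chance meets in about 5% of groups. In Trim71-cond the lowest libraries so marked were Lin28a in 3B (6.573), Col9a2 in 3B (5.522), Acvr1b in 3A (5.509), Nefm in 1A (3.551) and Acly in 1A (10.17), and the highest was Mcm6 in 3B (10.35). In Trim71-KO the lowest were Ccne1 in 2B (6.213), Lig1 in 3A (8.077), Aldoa in 3B (10.09) and Sema5a in 3B (5.45), and the highest were Gins3 in 3B (5.811), Nqo1 in 3B (6.796) and Maged1 in 1A (7.447).

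The change differed between days for 19 genes. The adjusted p-values from limma were 0.00101 for mt-Nd6, 0.00203 for Pdia4, 0.0128 for Coil, 0.0142 for Vim, 0.0169 for Elobl, Kdm3a and Krt18, and 0.0313 for Ak4. Elobl, which was named for its small p, differed by 0.694 on day 1, -0.633 on day 2 and -0.125 on day 3.

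The Trim71-KO change differed from the R595H/R595H change for 136 genes by limma. The differences that were above 0 were 1.79 for Ccr4, 0.900 for Pros1, 0.774 for Hook1, 0.762 for Nfib, 0.717 for Klf5, 0.652 for Yod1, 0.615 for Tex15, 0.516 for Mbnl1, 0.503 for Tdgf1, 0.464 for Sgk1, 0.445 for Nr5a2 and 0.429 for Trp53inp1. Those below 0 were -2.09 for Trim71, -0.950 for Krt18, -0.780 for Mt1, -0.776 for Sema5a, -0.715 for Ccnd3, -0.680 for Lefty1, -0.651 for Srm, -0.633 for Maged1, -0.604 for Cul1, -0.584 for Polr1a, -0.521 for Kdm3a, -0.515 for Ccne1, -0.496 for Fads1, -0.440 for Cdk4 and -0.394 for Sall4. Sema5a was called in both systems with opposite signs, at -0.42 in Trim71-KO and 0.36 in the clones.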

How the results depend on the processing

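Against 1783 genes called, limma called 1385 to 1845 under other filters, scalings and variance settings, and 1392 with the replicate block, where 414 of the 1783 were lost. It called 978 to 1637 when a library or a code was left out, the lowest without code 2B (1129 without 3A, 1124 without 3B), 795 on day 3 only, and 697 with the removed directions as covariates, where the median standard error was 1.25 times as large. The same 20 libraries without those covariates gave 1875. After scaling to equal totals 53.9% of calls were rises, against 49.6%. The day interaction, with 19 genes called, gave 2 without a filter, 32 after quantile normalization, 40 with equal totals and 0 without trend and robust, where 745 genes had an unadjusted p under 0.05. The difference between systems, 136 genes, gave 83 with the 5/2 clone libraries alone, and 44 to 140 with a library or clone left out: 44 without WT C7, 47 without R595H/R595H C14, 71 without either library of code 2B, and 73 and 79 without the Trim71-cond and Trim71-KO library of code 3A. The causes of these shifts were not tested. Of 108 named genes beside Trim71, 85 lost their call in none of the 23 alternatives that tested them (92 of the 108 passed the stricter filter), and 107 kept it with any single library left out. Most were named for a large change or a small p in the main fit, which favours keeping the call. Of all 1783 called genes, 696 kept it in the adjusted fit and 913 without code 2B. Krt18 was lost without Trim71-KO 2B (adjusted p = 0.0503). The replicate block ended no other call among the named genes, and no change reversed. Depth is unknown, so the smallest change these libraries could show cannot be given from counts.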
